A study of Mus musculus with 6 samples.

Results

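The genes described here are 10 enzymes that build, lengthen and desaturate fatty acids: Acly, Acaca, Fasn, Scd1, Scd2, Elovl1, Elovl5, Elovl6, Fads1 and Fads2. They were chosen by symbol, and all 10 were found among the 21448 genes of the deposited table. RNA was sequenced from primary lymphoma B cells of E mu-Myc mice, in which a Myc transgene under the immunoglobulin heavy chain enhancer drives B cell lymphoma. All 6 libraries carry that transgene: 3 are labelled wild type and 3 are labelled PRDM15 KO. Per the labels' protocols, cells were cultured with IL7, given 50 nM OHT (for the deletion) or ethanol (control) for 24 hours, and collected 3 days later. The labels do not say which promoter drove the recombinase, how many mice gave the lymphomas, or the age of the mice. That OHT went to the libraries labelled knockout is inferred from the protocol. If so, exposure to OHT coincides with the label, and effects of OHT and of the deletion cannot be told apart here. PRDM15 is a transcription factor with a PR domain and zinc fingers. The series title ties it to the metabolism of B cells. The comparison asks whether transcripts of these lipid enzymes differ between the libraries labelled knockout and wild type.

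Fatty acid synthesis starts in the cytosol. ATP-citrate lyase (Acly) splits citrate into acetyl-CoA, acetyl-CoA carboxylase 1 (Acaca) turns that into malonyl-CoA, and fatty acid synthase (Fasn) joins the units into palmitate. Elongases of the ELOVL family then lengthen the chain, and stearoyl-CoA desaturases (Scd1, Scd2) put a double bond into saturated chains to give oleate and palmitoleate, while Fads2 and Fads1 add double bonds to the essential polyunsaturated fatty acids. The transcription factor SREBP1 (Srebf1) is the classic activator of most of these genes, and dividing lymphoma cells use their products for membranes.

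Values are reads per gene scaled to an effective library size (CPM, with no correction for gene length), given per library in the order of replicates 1, 2 and 3 and as mean ± SD (n = 3 libraries per group). Libraries held 28852951 to 47255421 reads assigned to genes, and the 10 enzymes had between 576 and 35418 reads each in every library. All 10 passed the filter on low values, a mean CPM of at least 1 over the 6 libraries, which left 10533 genes. Libraries with the same replicate number deviated together from their group means (correlation across genes 0.73, 0.73 and 0.84), so the numbers were taken as pairs and each gene has an unpaired and a paired limma fit. A gene is said to have fallen where its adjusted p was under 0.05 in either fit. Prdm15 overlapped between the groups (29.2 to 47.3 CPM in wild type and 39.2 to 40.9 CPM in the libraries labelled knockout). The gene total thus showed no loss of Prdm15, and the labels were not checked in another way. Reads of single exons cannot be read from gene totals. Cd79b, a subunit of the B cell receptor, was high in every library (389 to 517 CPM in wild type and 446 to 519 CPM in knockout).

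The main change among the 10 enzymes was a fall of both stearoyl-CoA desaturases, Scd1 and Scd2, in the libraries labelled knockout. Of the other 8 enzymes none passed the test. In the paired fit 2 of 10 enzymes passed, both lower, where 0.873% of all tested genes passed in either direction and 0.741% passed as lower. In the unpaired fit 0 of 10 passed, where 0.00949% of all genes, a single gene, did. The median log2 change of the 10 was -0.27, against -0.03 over all tested genes, and by pair it was -0.27, -0.27 and -0.20 against -0.05, -0.002 and -0.04. Of the 10 enzymes, 7 were lower in all 3 pairs, as were 29.9% of all tested genes, and 0 were higher in all 3, as were 16.7%. Of the 10, 3 (Acly, Scd1 and Scd2) did not overlap between the groups, where 6.29% of all tested genes lay lower without overlap, and none lay higher without overlap, where 3.21% did.

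**Figure D1:**
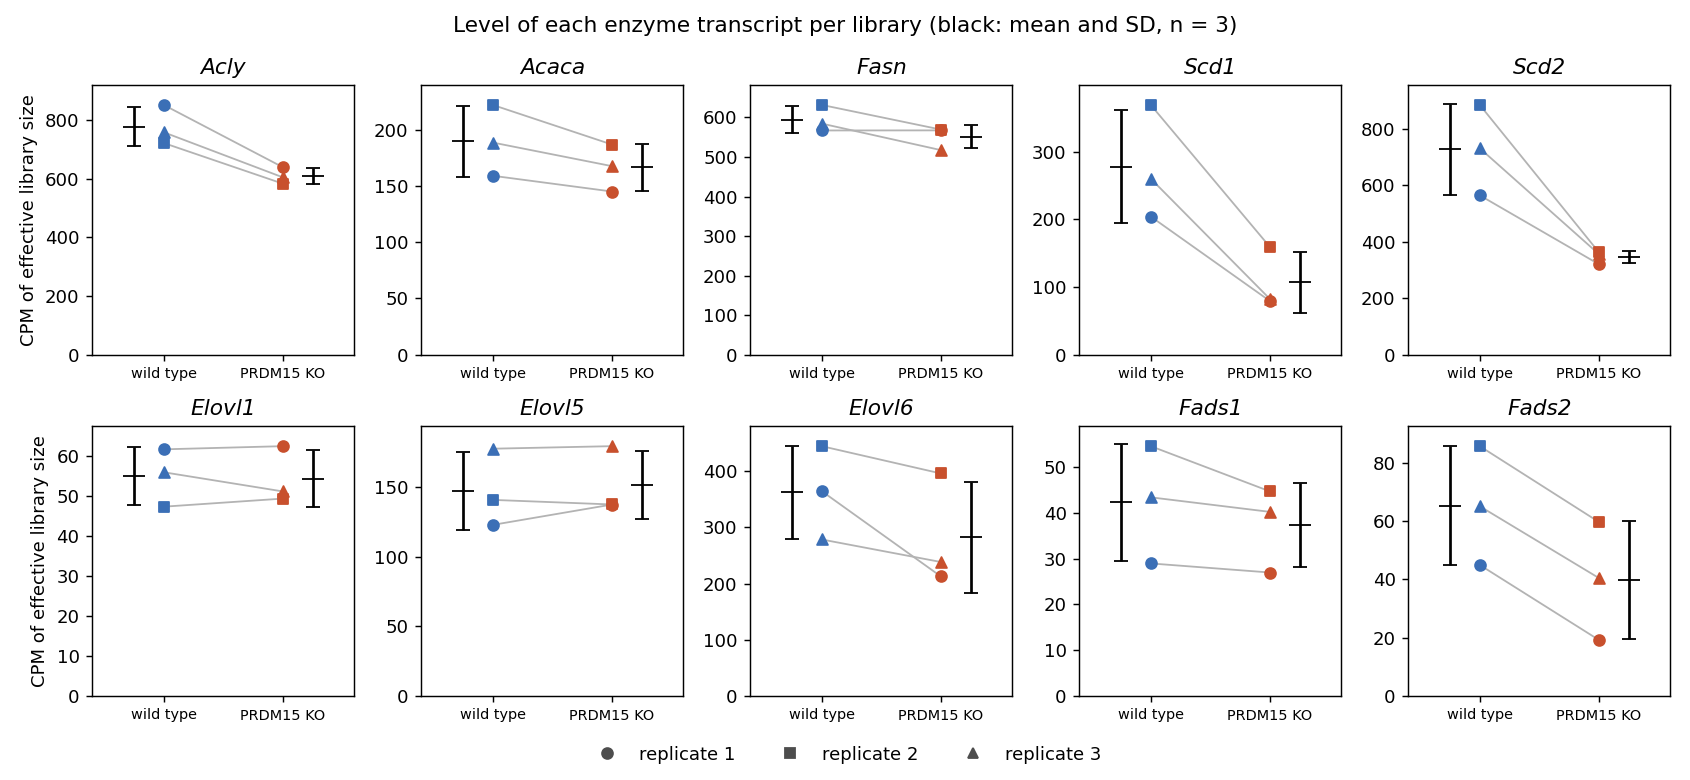
Level of each of the 10 enzyme transcripts in CPM, on vertical axes that begin at 0, in the wild type (blue) and PRDM15 KO (red) libraries, where a line links the libraries of a pair and black bars give mean and SD (n = 3). Scd1 and Scd2 lay lower in each knockout library than in any wild type library, and so did Acly by a smaller step, while Elovl1 and Elovl5 covered the same range in both groups.

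Scd1 (ENSMUSG00000037071) encodes the stearoyl-CoA desaturase that makes oleate in liver and fat and that SREBP1 is known to activate. The wild type libraries held Scd1 at 204, 369.6 and 260.5 CPM, and the knockout libraries at 79.2, 159 and 82.3 CPM. Each knockout library lay below every wild type library, and within both groups replicate 2 was the highest. Scd1 went from 278 ± 84.0 to 107 ± 45.4 CPM, so that the knockout level was 38.8%, 43.1% and 31.6% of the wild type level in pairs 1, 2 and 3. The log2 change was -1.41 (paired SE 0.093, 95% interval -1.64 to -1.17) and passed in the paired fit (limma adjusted p = 0.0187, unpaired adjusted p = 0.800). By paired p, Scd1 ranked 9 among the 10533 genes tested.

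Scd2 (ENSMUSG00000025203) encodes the form that is widespread outside liver and known from brain and early development. Levels of Scd2 were 564, 885 and 731 CPM in wild type and 320.0, 362 and 356 CPM in knockout. The 3 knockout values lay close together, while the wild type values spread, with a coefficient of variation of 22.0% in wild type and 6.56% in knockout. Scd2 went from 727 ± 160.2 to 346 ± 22.7 CPM, and the knockout level was 56.7%, 40.9% and 48.6% of wild type in pairs 1, 2 and 3. The log2 change was -1.05 (paired SE 0.097, 95% interval -1.29 to -0.80; paired limma adjusted p = 0.0324, unpaired 0.239), and Scd2 ranked 32 by paired p.

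With the paired count tests on the recovered reads, edgeR called Scd1 (adjusted p = 0.0269) and not Scd2 (adjusted p = 0.0545), where it called 0.370% of all genes. DESeq2 with the pairs called both, where it called 7.01% of all genes, and so did DESeq2 without them (1.05% of all genes). Unpaired edgeR called neither (0.00% of all genes, 582 genes at an unadjusted p under 0.05). Both limma calls were lost without pair 2 (adjusted p = 0.109 for Scd1 and 0.194 for Scd2) or without pair 3 (0.0941 and 0.172), fits that hold 2 pairs. The log2 changes there were -1.50 and -0.93 without pair 2 and -1.28 and -1.05 without pair 3.

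Scd1 and Scd2 lie side by side with Scd3 and Scd4 in the RefSeq gene order, and reads of such relatives can be shared. Of the 50-base words in the GENCODE M21 transcripts of Scd1, 2.97% also occurred in those of Scd2, and 3.42% in those of Scd3. Scd3, a skin form, was at 0.13 to 0.21 CPM in wild type and at 0.03 to 0.09 CPM in knockout. Scd4, a heart form, was at 0.45 to 0.73 and at 0.23 to 0.57 CPM. Both were under the filter and were not tested, so nearly all transcripts of the cluster were Scd1 and Scd2. The summed level of these 2 was 769, 1254 and 992 CPM in wild type and 399, 521 and 438 CPM in knockout. On the log2 scale the sum differed by -0.95, -1.27 and -1.18 in pairs 1, 2 and 3.

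The enzymes upstream of the desaturases did not pass the test. Acly (ENSMUSG00000020917) was at 851, 721 and 758 CPM in wild type and at 638, 582 and 604 CPM in knockout. All 3 knockout values lay below the lowest wild type value, and the spread within each group was small. The log2 change of Acly was -0.35 (paired 95% interval -0.49 to -0.21, paired limma adjusted p = 0.0672, unpaired 0.946), which missed the threshold. It was -0.41, -0.31 and -0.33 in pairs 1, 2 and 3. DESeq2 with the pairs called Acly (adjusted p = 8.37e-08), and edgeR with the pairs did not (adjusted p = 0.0793). The limma call was made without pair 1 (adjusted p = 0.0271), a fit that called 840 of the 10533 genes.

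Acaca (ENSMUSG00000020532) was at 159, 222 and 189 CPM in wild type and at 145, 187 and 168 CPM in knockout. The groups overlapped, and in both the order of the libraries was the same, with replicate 1 lowest and replicate 2 highest. Its log2 change was -0.18 (paired 95% interval -0.31 to -0.05, paired limma adjusted p = 0.159).

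Fasn (ENSMUSG00000025153) was at 567, 632 and 585 CPM in wild type and at 567, 569 and 517 CPM in knockout. Pair 1 was level, with a log2 change of 0.001, and pairs 2 and 3 lay at -0.15 and -0.18. The log2 change over all was -0.11 (paired limma adjusted p = 0.354), and the paired 95% interval of -0.26 to 0.04 corresponds to a knockout level between 0.834 and 1.03 times wild type. A fall of the size seen for Scd1 or Scd2 lies outside that interval.

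RefSeq promoter sequences (build GRCm38.p6, 250 bases before to 50 bases after the start site) were at hand for 7 of the 10 enzymes and not for Scd1, Scd2 and Fads1. Those of Acly, Fasn and Fads2 are shown because Acly and Fasn open and close the synthesis of palmitate, and Fads2 had the lowest log2 change after the SCD genes. Capitals mark matches, on either strand, to the CCAAT box (CCAAT), to the E-box (CACGTG) read by MYC and its relatives, or to the sterol response element (TCACNCCAC) read by SREBP factors.
Acly, chr11:100527951-100528250, minus strand: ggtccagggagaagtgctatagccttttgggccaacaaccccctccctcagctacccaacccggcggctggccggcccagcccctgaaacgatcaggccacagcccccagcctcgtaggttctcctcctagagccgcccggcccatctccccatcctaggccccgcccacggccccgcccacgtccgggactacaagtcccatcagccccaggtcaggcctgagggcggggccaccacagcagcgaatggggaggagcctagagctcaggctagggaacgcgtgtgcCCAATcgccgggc
Fasn, chr11:120824498-120824797, minus strand: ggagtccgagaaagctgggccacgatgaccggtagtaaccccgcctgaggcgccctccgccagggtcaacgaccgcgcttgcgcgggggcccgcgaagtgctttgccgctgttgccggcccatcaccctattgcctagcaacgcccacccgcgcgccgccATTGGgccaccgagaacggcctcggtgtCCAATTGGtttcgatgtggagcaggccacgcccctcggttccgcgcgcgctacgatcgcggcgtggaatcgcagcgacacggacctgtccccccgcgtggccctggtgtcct
Fads2, chr19:10101454-10101753, minus strand: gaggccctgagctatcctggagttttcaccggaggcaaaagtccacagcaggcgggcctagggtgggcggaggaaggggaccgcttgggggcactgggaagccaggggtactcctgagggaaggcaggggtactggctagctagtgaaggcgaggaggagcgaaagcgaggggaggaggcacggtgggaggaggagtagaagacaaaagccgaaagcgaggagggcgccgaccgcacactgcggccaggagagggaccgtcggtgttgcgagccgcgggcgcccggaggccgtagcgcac
The Fasn window held 3 CCAAT matches, of which those at -62 and -59 from the start site overlap by 2 bases, and the Acly window held 1, after the start site. The Fads2 window held none of these letters. Over all 32851 promoter windows, 37.4% held a CCAAT match, 7.15% an E-box and 1.24% the sterol element. Among the 8 windows of the 7 enzymes, the E-box occurred in that of Elovl5 alone and the sterol element in none. With exact matches that rare, 8 short windows hold few or none, so this does not show that sites for SREBP factors are absent. The GC box (GGGCGG, either strand, not in capitals) was matched 4 times for Acly, not for Fasn and 1 time for Fads2, and 35.7% of all windows held it.

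Among the elongases, Elovl6, which takes palmitate to stearate, the substrate of the SCD enzymes, differed most. Elovl6 (ENSMUSG00000041220) was at 364, 444 and 278 CPM in wild type and at 212, 396 and 238 CPM in knockout. Knockout replicate 2 lay inside the wild type range, and the lowest value was that of knockout replicate 1. By pair the log2 change of Elovl6 was -0.78, -0.17 and -0.22, with a mean of -0.39 (paired limma adjusted p = 0.200, unpaired 0.9998). DESeq2 with the pairs called Elovl6 (adjusted p = 0.0465), and edgeR with the pairs did not (adjusted p = 0.221).

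Elovl5, which lengthens polyunsaturated chains, and Elovl1, which makes very long saturated chains, did not pass. Elovl5 (ENSMUSG00000032349) was at 123, 141 and 177 CPM in wild type and at 137, 137 and 179 CPM in knockout. Elovl1 (ENSMUSG00000006390) was at 61.7, 47.4 and 56.0 CPM and at 62.5, 49.4 and 51.2 CPM. For both, the groups covered the same range. The paired 95% intervals of the log2 change were -0.10 to 0.20 for Elovl5 and -0.18 to 0.14 for Elovl1 (paired limma adjusted p = 0.678 and 0.89998). In GENCODE M21, 53 exon bases of Elovl1 overlap Cdc20 on the opposite strand, and the strand setting of the counting is not given in the sources used here.

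The desaturases of polyunsaturated fatty acids, Fads2 and Fads1, are neighbours in the genome, and neither passed in the limma fits that held all libraries. Fads2 (ENSMUSG00000024665), the gatekeeper of arachidonate synthesis, was at 44.9, 85.7 and 65.0 CPM in wild type and at 19.2, 59.6 and 40.4 CPM in knockout. Each knockout library was below its own partner, yet the groups overlapped because replicate 2 was high and replicate 1 was low in both. By pair the log2 changes were -1.19, -0.52 and -0.67, with a mean of -0.79 (paired 95% interval -1.14 to -0.44). It missed the threshold (paired limma adjusted p = 0.0840, unpaired 0.9998). DESeq2 with the pairs called Fads2 (adjusted p = 0.000113), and edgeR with the pairs did not (adjusted p = 0.102). The paired limma fit without pair 1 called it (adjusted p = 0.00485), along with 840 of the 10533 genes in all. Fads1 (ENSMUSG00000010663), which acts after Fads2, was at 28.9, 54.5 and 43.4 CPM in wild type and at 26.9, 44.7 and 40.2 CPM in knockout. Its log2 change was -0.16 (paired 95% interval -0.34 to 0.01, paired limma adjusted p = 0.255).

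**Figure D2:**
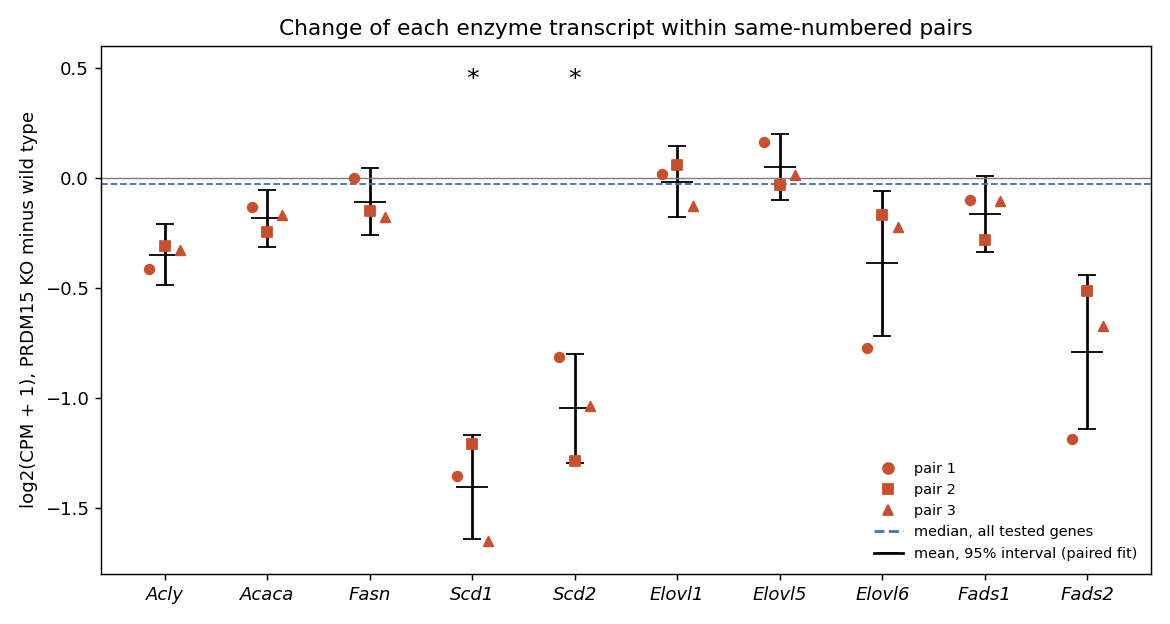
Difference in log2(CPM + 1), PRDM15 KO minus wild type (vertical axis), of each of the 10 enzymes in pairs 1, 2 and 3 (circle, square, triangle), with the mean and its 95% interval from the paired fit in black and the median of all tested genes as a dashed line. Asterisks mark a paired limma adjusted p under 0.05, reached by Scd1 (-1.41) and Scd2 (-1.05).

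Ratios of (CPM + 1) between enzymes within a library depend on how libraries were scaled only through the added 1, and 6 were compared. The log2 ratio of Scd1 to Fasn was -1.47, -0.77 and -1.16 in wild type and -2.82, -1.83 and -2.64 in knockout, so every knockout library lay below every wild type library. The log2 ratio of Scd2 to Fasn was -0.007, 0.49 and 0.32 in wild type and -0.82, -0.65 and -0.54 in knockout, again without overlap. Scd2 reads, not corrected for length, thus went from about level with or above those of Fasn to below them. Per kilobase of exon, Scd2 stayed above Fasn in each knockout library (58.7, 66.4 and 65.2 against 56.5, 56.7 and 51.5 CPM per kilobase). The differences were -1.30 and -0.94 (exact two-sided permutation p = 0.1 for each, the smallest that 3 against 3 libraries allow, 0.2 after Benjamini-Hochberg adjustment over the 6 ratios).

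The log2 ratio of Fads2 to Fads1 was 0.62, 0.64 and 0.57 in wild type, a narrow range, and -0.47, 0.41 and 0.007 in knockout. The knockout libraries lay below the wild type libraries and far apart from each other (difference -0.63, exact permutation p = 0.1, adjusted 0.2). Scd1 to Scd2 differed by -0.36 with overlapping groups (exact permutation p = 0.4), at -0.54, 0.08 and -0.61 in pairs 1, 2 and 3, so the data do not separate the size of the 2 falls. Elovl6 to Elovl5 (-0.44) and Acly to Fasn (-0.24) overlapped as well, each with an exact permutation p = 0.2 and an adjusted p of 0.24.

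**Figure D3:**
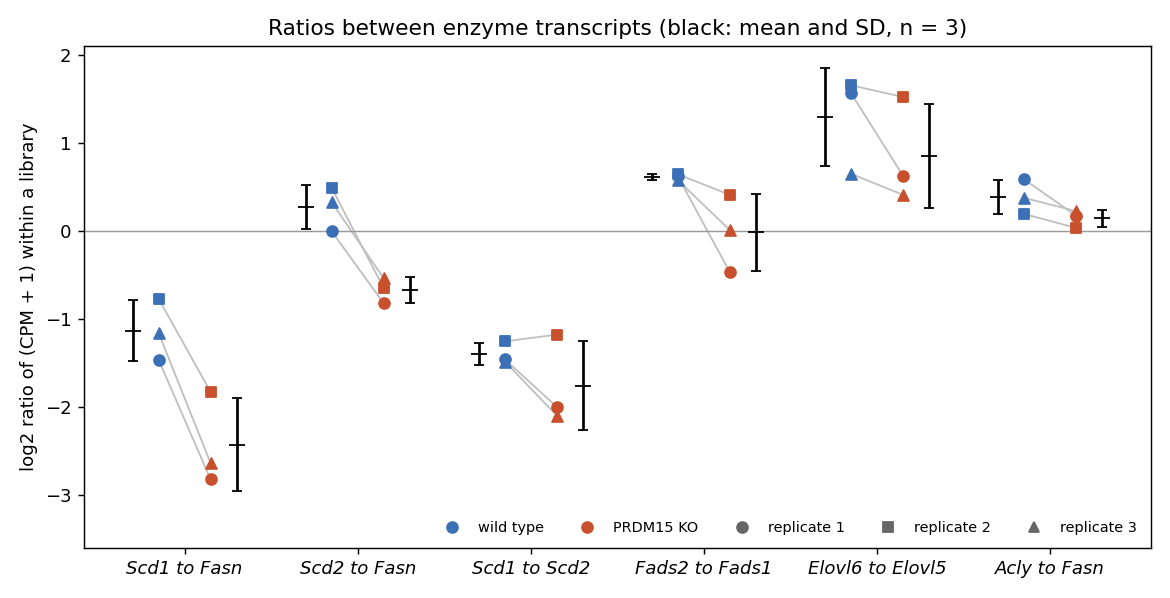
Log2 ratio of (CPM + 1) between 2 enzymes within each library (vertical axis) for 6 ratios, wild type in blue and PRDM15 KO in red, with a line for each pair and mean and SD (n = 3) in black. Scd1 to Fasn, Scd2 to Fasn and Fads2 to Fads1 did not overlap between the groups, and the wild type libraries lay between 0.57 and 0.64 for Fads2 to Fads1.

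Levels of different genes were compared per kilobase, using the summed exon length of each gene in GENCODE M21. In wild type, Acly had the highest level (168 ± 14.5 CPM per kilobase), next to Scd2 (133 ± 29.4). Fasn (59.2 ± 3.33), Elovl6 (59.1 ± 13.5), Scd1 (57.6 ± 17.4) and Elovl5 (52.8 ± 10.0) followed and did not differ beyond their spread. Elovl1 (28.3 ± 3.72) came next, then Fads2 (20.7 ± 6.47) and Acaca (19.95 ± 3.31), which lay within each other's spread, and Fads1 was lowest (12.2 ± 3.71). In the knockout libraries Scd2 was at 63.4 ± 4.16 CPM per kilobase, no longer far above Fasn at 54.9 ± 2.93 and Elovl5 at 54.4 ± 8.69. Scd1 went from rank 5 to rank 7, at 22.1 ± 9.39 CPM per kilobase, below Elovl1.

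The genes that work around these enzymes showed no call, apart from sterol synthesis. Over all tested genes 0.873% passed in the paired fit in either direction. At that share lists this short hold few or no calls, so an absence of calls does not show that they were unchanged. Regulators of lipid synthesis were a list of 24 entries, of which 21 were tested, 0 passed in either direction and the median log2 change was -0.09. Srebf1, the gene of SREBP1, was at 68.6, 107 and 106 CPM in wild type and at 56.0, 66.9 and 67.5 CPM in knockout. The groups did not overlap and the log2 change was -0.29, -0.67 and -0.65 in pairs 1, 2 and 3, but Srebf1 did not pass (paired limma adjusted p = 0.0808). Srebf2, the gene of the sterol regulator SREBP2, was at 161, 165 and 180.4 CPM and at 142, 118 and 134 CPM, also without overlap and without a call (log2 change -0.36, paired limma adjusted p = 0.115). Rxra, a nuclear receptor partner, was at 0.56 to 0.83 CPM in wild type and at 0.63, 11.4 and 5.76 CPM in knockout replicates 1, 2 and 3. The same 2 libraries were the highest in myeloid markers.

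Acetyl-CoA and NADPH suppliers gave 0 calls among 9 tested (median log2 change -0.11). Slc25a1, the citrate carrier that feeds Acly, had a log2 change of -0.20, Aacs, which activates acetoacetate for lipid synthesis, of -0.34, and Cs, the mitochondrial citrate synthase, of 0.25 (paired limma adjusted p = 0.146, 0.0840 and 0.116). Cs was at 256, 249.3 and 248 CPM in wild type and at 309, 311 and 279.9 CPM in knockout, so its groups lay apart in the opposite direction to Acly. Other carboxylase genes and malonyl-CoA control, with the upstream kinase Stk11 (log2 change -0.10), the malonyl-CoA decarboxylase Mlycd (-0.25) and the AMP kinase subunit Prkaa1 (0.11), gave 0 calls among 11 (median -0.08).

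Partners of the elongases gave 0 calls among 6 (median log2 change -0.04). Tecr, the reductase that closes the elongation cycle, was at 84.9, 88.8 and 85.4 CPM in wild type and at 71.3, 70.5 and 77.5 CPM in knockout, without overlap (log2 change -0.24, paired limma adjusted p = 0.143). The dehydratases Hacd3 and Hacd4 had log2 changes of 0.15 and 1.48, and Hacd4 was high in knockout replicates 2 and 3 alone (0.27, 23.6 and 10.2 CPM). The electron supply of the desaturases gave 0 calls among 5 (median 0.06), with Cyb5b at 0.17, Cyb5r4 at 0.06 and Cyb5r3 at 0.09 on the log2 scale. The same held for the other desaturases and elongases, with 0 calls among 3 tested of 10 (Degs1 0.09, Fads3 0.26, Elovl4 -0.07). Mitochondrial fatty acid synthesis, a separate pathway that makes the precursor of lipoate, gave 0 calls among 7 (median -0.06, with Oxsm at 0.27, Lias at 0.20 and Cbr4 at -0.18).

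Sterol synthesis and uptake genes are the known targets of SREBP2. Of 16 tested, 2 fell in the paired fit (Fdps and Lss), where 0.741% of all tested genes did. Of the same 16, 15 were lower in all 3 pairs (29.9% of all tested genes) and 11 lay below wild type without overlap (6.29%). Their median log2 change was -0.39, against -0.03 over all tested genes. Fdps, farnesyl diphosphate synthase, was at 149.5, 144 and 128 CPM in wild type and at 87.3, 80.3 and 84.8 CPM in knockout (log2 change -0.73, paired limma adjusted p = 0.0313). Lss, lanosterol synthase, had a log2 change of -0.75 (paired limma adjusted p = 0.0430), and Dhcr7, the last step to cholesterol, of -0.56 (adjusted p = 0.0548). No sterol gene of the list had a log2 change as low as that of Scd2.

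**Figure D4:**
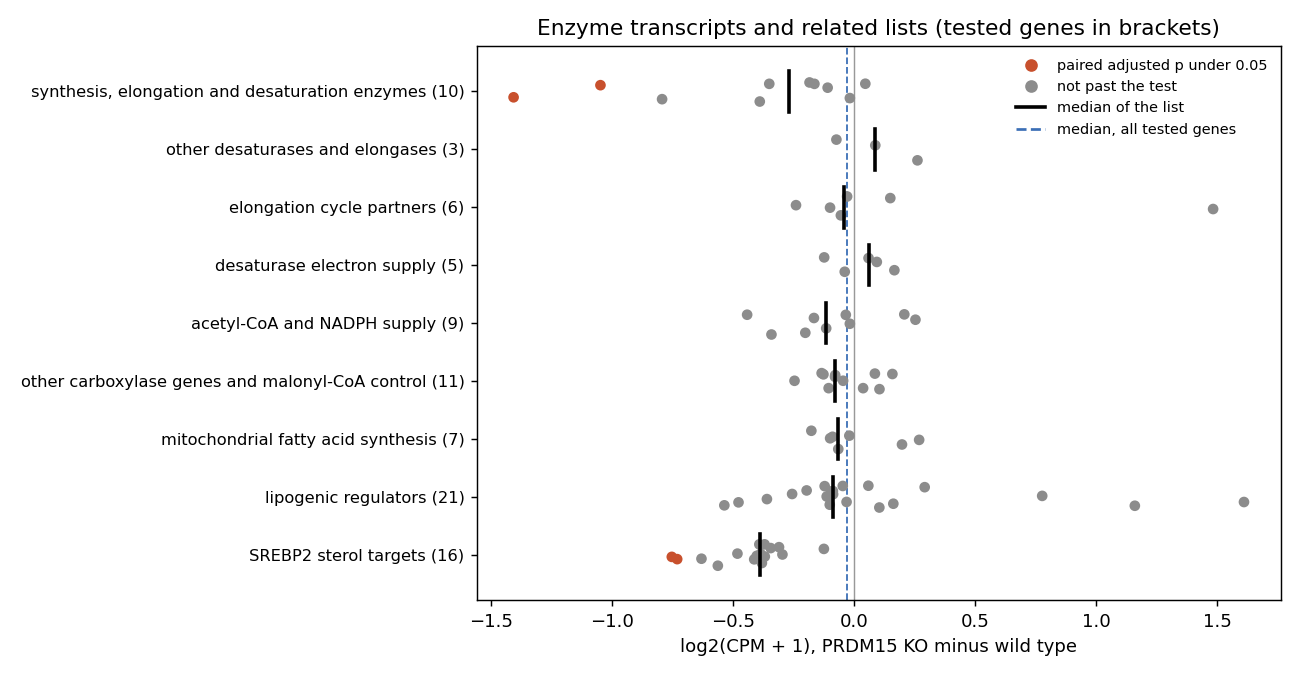
Difference in log2(CPM + 1), PRDM15 KO minus wild type (horizontal axis), of each tested gene of the 10 enzymes and of 8 related lists (rows), red where the paired limma adjusted p was under 0.05, with a black bar for the median of the list and a dashed line for that of all tested genes. Scd1 and Scd2 at -1.41 and -1.05 were the lowest points drawn, and the sterol list lay around its median of -0.39.

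Myeloid transcripts differed between the libraries, and their part in the results was not tested. The summed level of 16 myeloid markers was 272 to 339 CPM in wild type and 236, 2846 and 1528 CPM in knockout replicates 1, 2 and 3, and no marker was at 0 in every library. Lyz2, lysozyme of macrophages, was at 20.4, 124 and 86.0 CPM in wild type and at 10.7, 1471 and 820.3 CPM in knockout, and Ctss, a lysosomal protease, at 184, 90.3 and 98.7 and at 190.2, 344 and 197 CPM. In replicate 1 of both groups most of the sum was Ctss, so the narrow range of the wild type sum hides a wider spread of the other markers. In pair 1, where the knockout library had the lowest myeloid sum of all, the log2 changes were -1.36 for Scd1, -0.82 for Scd2 and -1.19 for Fads2. With knockout replicate 1 alone against the 3 wild type libraries, a fit that ignores the pairs and assumes the lone library to vary like the others, the changes were -1.76, -1.16 and -1.67. None passed there (adjusted p = 0.941 for each). In bulk RNA, fewer cells of a type and less RNA per cell cannot be told apart. Lpl and Fabp4, the highest of the adipocyte list, were at 4.62, 145 and 66.5 CPM and at 0.77, 34.2 and 12.4 CPM in knockout replicates 1, 2 and 3, in the order of the myeloid sum. In wild type they were at 13.4, 10.9 and 5.93 CPM and at 7.32, 1.55 and 0.53 CPM. That was not the order of the myeloid sum there (272, 339 and 278 CPM). The adipocyte list of 10 genes summed to 7.06 to 21.3 CPM in wild type and 6.62 to 179 CPM in knockout, and only Lpl and Fabp4 of it passed the filter on low values. Adipoq and Plin1 of the same list, named after their values were seen, stayed at or below 0.37 and 0.10 CPM in every library. Markers of T cells (Lck 14.2 to 78.0 CPM, Cd2 0.40 to 61.9 CPM), stroma (Thy1 1.83 to 13.3 CPM, Fn1 0.33 to 4.29 CPM) and erythroid cells (Hbb-b1 and Klf1 up to 1.10 and 0.57 CPM) did not pass or were under the filter. The summed T cell list lay at 49.8 to 121 CPM in wild type and 67.1 to 106 CPM in knockout, the stromal list at 6.57 to 12.0 and 4.79 to 21.1 CPM, and the erythroid list at 0.45 to 1.504 and 0.40 to 0.86 CPM. Most of the T cell sum was Lck, highest in wild type replicate 3, and Cd2, highest in knockout replicate 1. Cd3d, Cd3e, Cd3g, Cd4, Cd8a, Cd8b1 and Thy1, named after their values were seen, were highest in knockout replicate 2. Cd8a was at 0.13, 0.18 and 0.06 CPM in wild type and at 0.77, 5.14 and 0.02 CPM in knockout, without a call. The B cell list summed to 1909 to 2672 and 1925 to 2548 CPM, a sum that hides differences between its members. Of its 11 tested genes, 1 (Rag1) lay higher in knockout without overlap, where 3.21% of all tested genes did. Rag1 was at 0.72, 1.78 and 2.85 CPM in wild type and at 18.1, 4.11 and 4.69 CPM in knockout, without a call. Vpreb1 was at 55.8, 268 and 269 CPM and at 30.8, 247 and 223 CPM. Myc, summed over the transgene and the endogenous gene as far as both are counted together, was at 846, 684 and 618 CPM in wild type and at 727, 456 and 532 CPM in knockout (log2 change -0.34, paired limma adjusted p = 0.153).

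By the changes in the 3 pairs, the tested genes of at least 10 CPM most like Scd1 were Hmces, Cux1, Zmym3 and Haao, with a largest difference over the pairs of 0.23 to 0.38 on the log2 scale among 7976 genes. Those most like Scd2 were Cited2, Crip1, Zmiz1 and Haao (0.22 to 0.31). Each of these 7 genes had an overall log2 change between -0.91 and -1.35. That follows from the choice, since the overall change is the mean of the 3 pair changes. The genes most like Fasn were Sec61a2, Mfsd14b, Ubr2 and Phrf1, within 0.008 to 0.016, as many genes change that little.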

How the data were processed

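RNA-seq libraries of 6 samples (3 wild type, 3 PRDM15 KO) were compared. The authors' deposited signal is read numbers scaled to library size (CPM scale), judged from the values. The table is named FPKM, but within each library 100% of values were whole multiples of a single step (tolerance 0.01 reads), so they are not divided by gene length. Tools in the submitters' processing notes, listed without roles, are STAR 2.4.2a, HTSeq, edgeR and CASAVA, with build mm9. The annotation is not stated there.

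The design had assumed FPKM, so the main test was limma 3.58.1 (R 4.3.3) on log2(value + 1), trended prior, two-sided, Benjamini-Hochberg over 10533 genes with a mean of at least 1, threshold 0.05. Log2 changes on this scale understate those of low genes. The paired fit adds the replicate number; pairing rests on the data alone (same-number correlations 0.73, 0.73 and 0.84), since the labels name no shared mouse. The design text calls the libraries biological replicates. edgeR 4.0.16 and DESeq2 1.42.0 were run on recovered reads as alternatives, with other pseudocounts, filters, scalings and left-out libraries. The code of the limma, edgeR and DESeq2 fits, paired and unpaired, was run on simulated counts. Library pairs differed beyond counting noise (chi-square per degree of freedom at least 49.5). Plots used Python 3.11.15 and matplotlib 3.10.9.

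The enzymes and gene lists were chosen with earlier results of these data known, so no list was tested as a set. Of each other list, the 3 genes with the smallest unpaired p and any called were named, and of marker lists the 2 highest, except for an item not reported here; likeness was the largest difference over the pairs. Coordinates of the data are not printed, because the annotation at hand is of another build.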

Additional observations from a re-analysis of the deposited data

How the results depend on the processing

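Of the log2 changes of the 10 enzymes over 24 alternatives, 203 kept direction and call, 18 gained a call and 19 changed sign. Adding the replicate block, changing the filter or dropping the trend in limma does not alter a log2 change, so only the call could differ there. Scd1 stayed between -1.76 and -1.18 and Scd2 between -1.22 and -0.89 over all 24, with 7 and 6 calls. The sign changes were small values of Elovl1 (0.0082 under quantile normalization and 0.038 with equal totals, with and without replicate block, 0.0105 with unpaired edgeR and 0.0099 with unpaired DESeq2, 0.0077 and 0.0071 with the replicate block, 0.19 with knockout replicate 1 as the lone knockout library), of Elovl5 (-0.080 in that last fit) and, with single libraries or pairs left out, of Elovl1 (range -0.12 to 0.069), Elovl5 (-0.080 to 0.19) and Fads1 (-0.41 to 0.048). Without pair 3 and without pair 1, with the replicate block, Elovl1 was at 0.039 and Elovl5 at -0.0097.

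The number of genes past the threshold was 1 unpaired and 92 with the replicate block. It was 0 with pseudocount 5, without a filter, under quantile normalization, with edgeR unpaired (582 at an unadjusted p under 0.05) and with the lone knockout library, 2 with a mean of at least 5, 110 with DESeq2 unpaired, 129 and 81 with the replicate block under quantile normalization and equal totals, 39 and 738 with the replicate block in edgeR and DESeq2. It was 0 to 840 with single libraries or pairs left out, 840 being without pair 1. Of the 10 enzymes, 0 passed unpaired and 2 with the replicate block under each scaling, 1 with it in edgeR, 5 with it in DESeq2 (Acly, Scd1, Scd2, Elovl6 and Fads2), 2 with DESeq2 unpaired, and 0 to 4 with libraries or pairs left out. The median log2 change of the 10 was -0.22 after quantile scaling and -0.21 at equal totals, paired or not, -0.20 without pair 1 (replicate block), -0.48 with the lone knockout library and -0.34 to -0.17 with libraries or pairs left out. The 6 ratios kept their direction in all 54 alternatives. Those that only flip the signs of pair differences to get a p reuse the main difference, so direction was fixed there. Each enzyme had at least 576 reads in every library, and the effect of depth was not tested.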

Other observations

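Genes next to the enzymes in the RefSeq gene order were read for their levels, a choice made after the values of the enzymes were seen. Slc16a3, the lactate exporter, lies beyond Ccdc57 on the far side of Fasn. Levels of Slc16a3 were 167, 76.6 and 37.5 CPM in wild type and 3.43, 3.49 and 1.54 CPM in knockout (log2 change -4.43, paired limma adjusted p = 0.0146), while Fasn itself stayed at 517 to 632 CPM. Ccdc57, which lies between them, was at 16.8, 14.4 and 10.7 CPM and at 9.21, 8.86 and 8.70 CPM (log2 change -0.57, paired limma adjusted p = 0.133). On the other side of Fasn, Gps1 and Dus1l had log2 changes of 0.06 and -0.08.

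Cnp, 2 genes from Acly, had a log2 change of -0.32 (paired limma adjusted p = 0.0957), close to the -0.35 of Acly. Beside the Fads cluster, Fen1 (-0.09) and Tmem258 (-0.14) did not pass, and the Scd cluster is flanked by Pkd2l1, Wnt8b and Sec31b, each at or below 1.13 CPM in every library. Enpep, the neighbour of Elovl6 and a surface peptidase of early B cells, was at 114, 707 and 411 CPM in wild type and at 37.7, 581 and 249.2 CPM in knockout, with the lowest value in knockout replicate 1 as for Elovl6 (log2 change -0.86, paired limma adjusted p = 0.160). These are values side by side, and no link between neighbours was tested.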
